A study of Homo sapiens with 12 samples.

Results

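The genes examined were 9 that encode the machinery of promoter-proximal pausing and pause release: the kinase CDK9 and its cyclin CCNT1, the inhibitor HEXIM1, the DSIF subunits SUPT5H and SUPT4H1, and the NELF subunits NELFA, NELFB, NELFCD and NELFE. They were chosen by name, with earlier results of these data known, and are 9 of the 27304 protein-coding and long non-coding genes with a known strand that were counted. All 9 passed the filter on low counts in every comparison.

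After starting a transcript, RNA polymerase II often stops a short way into the gene, held there by DSIF and NELF. P-TEFb, the pair of CDK9 with cyclin T1, phosphorylates NELF, DSIF and serine 2 of the repeats in the tail of the polymerase, and the polymerase then moves into the gene body. Part of P-TEFb is kept inactive by HEXIM1 bound to the 7SK RNA, and HEXIM1 transcription is known to rise when P-TEFb is released.

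The cells were K562, a long-established line from a human chronic myelogenous leukaemia, and all groups come from this 1 line. All 4 RNA groups came from cells given 500 µM 4-thiouridine (4sU), a uridine analogue built into new RNA, for 5 min. They differ only in what followed: RNA was sheared and then purified for 4sU (TT-Seq), purified without shearing (4sU-Seq), sheared without purification (Total RNA-Frag-Seq, called sheared total RNA below) or neither (Total RNA-Seq, called unsheared total RNA). The ChIP groups came from cells crosslinked with formaldehyde for 7.5 min and precipitated with an antibody to the polymerase named N20 or with an antibody labelled S2P, which is directed at serine 2 phosphate of the polymerase tail. Each of the 6 groups had 2 libraries. The RNA samples are described as biological duplicates; nothing states this for the ChIP libraries, so there the p-values measure a spread that may be technical.

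Binned counts ranged from 25909021 to 71317148 per RNA library. They were 12598494 and 23344930 for N20 and 73660126 and 34470652 for S2P. No non-zero bin of any ChIP library held an odd count, against 58.8% to 62.1% of the non-zero bins in the RNA libraries, so the ChIP counts move in steps of 2. Replicates differed by more than sampling noise in every group, and most in S2P, where chi-square per gene was 37.4 against 2.86 to 10.8 in the others. All 7 erythroid marker genes exceeded a level of 1 CPM per kb of gene span in each RNA group (CPM is the usual scaling of counts to the library total), with a summed level of 64.9 to 148. The 10 markers of other cell types summed to 1.92 to 4.34, with EPCAM over 1 in each RNA group and CD3D in unsheared total RNA alone.

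Positions are those of GRCh38.p14, and each RNA value below covers the whole RefSeq span, exons and introns together, on the strand of the gene. HEXIM1 is the shortest, 3.6 kb at chr17:45148475-45152099 on the plus strand, and its last 2438 bp overlap HEXIM2-AS1 on the other strand. CDK9 covers 4.8 kb at chr9:127786034-127790792, plus strand, and CCNT1 28.2 kb at chr12:48688458-48716707, minus strand. SUPT5H covers 31.1 kb at chr19:39445582-39476670, plus strand, and SUPT4H1 7.0 kb at chr17:58345178-58352201, minus strand, where it lies wholly inside TSPOAP1-AS1 of the other strand and begins 298 bp after the end of RNF43. NELFA covers 26.3 kb at chr4:1982723-2008974, minus strand; the coding gene LOC124900839 of the same strand ends 31 bp before its start, and NSD2 of the other strand ends 530 bp past its end. NELFB covers 18.2 kb at chr9:137255327-137273542, plus strand. NELFCD covers 13.9 kb at chr20:58981256-58995113, plus strand, and NELFE 6.9 kb at chr6:31952087-31958971, minus strand. NELFE and SKIC2 start 204 bp apart in opposite directions, and so do NELFB and CIMIP2A at 205 bp. ChIP reads carry no strand and cannot be divided within such pairs. The same holds where genes of opposite strands overlap or end close together, as CTSZ does 71 bp past the NELFCD end.

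The 250 bases before the start of 4 of the genes are shown, from RefSeq. HEXIM1 and SUPT4H1 are shown because they carried the most S2P signal at the start, CCNT1 because it was the only one of the 9 called higher in TT-Seq than in 4sU-Seq, and NELFE because SKIC2 starts beside it. Capitals mark matches on either strand to 5 short motifs: the TATA box (TATAAA), the core bound by NF-Y (CCAAT), the GC box bound by SP1 (GGGCGG), the core bound by ETS factors (CGGAAG) and the E-box (CACGTG). A match on the other strand appears as its reverse complement, and longer runs of capitals in NELFE are a GC box and an ETS core that overlap.
HEXIM1, GRCh38.p14, chr17:45148225-45148474, plus strand: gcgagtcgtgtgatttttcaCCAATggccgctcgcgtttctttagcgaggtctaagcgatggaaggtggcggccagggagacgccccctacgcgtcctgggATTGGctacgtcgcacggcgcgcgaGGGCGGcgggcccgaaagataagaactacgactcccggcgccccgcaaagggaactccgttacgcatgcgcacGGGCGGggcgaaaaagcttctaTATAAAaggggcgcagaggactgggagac
SUPT4H1, GRCh38.p14, chr17:58352202-58352451, minus strand: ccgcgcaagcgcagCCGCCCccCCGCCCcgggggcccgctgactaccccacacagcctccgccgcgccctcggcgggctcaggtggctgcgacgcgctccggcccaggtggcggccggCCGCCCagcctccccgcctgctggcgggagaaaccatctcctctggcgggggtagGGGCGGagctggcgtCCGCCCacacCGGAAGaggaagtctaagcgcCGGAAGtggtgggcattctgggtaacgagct
CCNT1, GRCh38.p14, chr12:48716708-48716957, minus strand: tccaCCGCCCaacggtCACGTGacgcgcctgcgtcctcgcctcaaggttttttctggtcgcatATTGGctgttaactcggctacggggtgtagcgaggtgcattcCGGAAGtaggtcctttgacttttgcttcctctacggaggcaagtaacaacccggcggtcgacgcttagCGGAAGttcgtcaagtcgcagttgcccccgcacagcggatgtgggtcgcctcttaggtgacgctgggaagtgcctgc
NELFE, GRCh38.p14, chr6:31958972-31959221, minus strand: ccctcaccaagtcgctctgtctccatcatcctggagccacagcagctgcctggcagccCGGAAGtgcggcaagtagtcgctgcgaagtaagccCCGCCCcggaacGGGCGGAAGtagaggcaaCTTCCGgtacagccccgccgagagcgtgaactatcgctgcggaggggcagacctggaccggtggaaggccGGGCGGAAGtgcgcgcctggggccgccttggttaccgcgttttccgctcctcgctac

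HEXIM1 was the only one of the 9 with a TATA box, which begins 29 bases before its start and occurs in 12.3% of 24884 promoter windows of 300 bases (250 before and 50 after the start). The GC box occurred in 8 of the 9 windows, against 43.9% of all, and the ETS core in 7 of 9, against 19.9%. The 24884 windows are those of protein-coding and long non-coding genes together, and shares among coding genes alone were not counted. The full palindrome of the NRF1 site was found in NELFB and NELFCD and in 1.4% of all windows. The NF-Y core was found in HEXIM1 and CCNT1 (36.1% of all), the E-box in CCNT1 alone (7.4%) and the full CRE palindrome (TGACGTCA) in none of the 9 (2.0%). The windows held 59.0% G and C bases in CCNT1 to 82.0% in CDK9, against a median of 58.0% over all windows. CpG dinucleotides numbered 26 to 48, against a median of 13. A match describes these letters and is not evidence of a bound factor.

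In RNA the genes of the P-TEFb kinase differed from each other. CDK9, the catalytic subunit, was read at 29.3 and 27.1 CPM (of all counts in genes, after TMM scaling) in TT-Seq, next to 30.5 and 33.9 in 4sU-Seq. Its values were 37.1 and 33.9 in sheared total RNA and 43.9 and 43.0 in unsheared total RNA. CDK9 was thus lowest in TT-Seq and highest in unsheared total RNA, and its TT-Seq range met neither total RNA group. CCNT1, the cyclin that activates CDK9, had 119 and 124 CPM in TT-Seq but 77.5 and 76.1 in 4sU-Seq. In total RNA it had 118 and 105 CPM after shearing and 110 and 109 without. CCNT1 therefore stood apart in 4sU-Seq, the one group below 100, while the other 3 groups lay between 105 and 124.

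HEXIM1, which holds P-TEFb inactive on 7SK, spread most over the RNA groups. It had 11.8 and 10.5 CPM in TT-Seq, against 18.3 and 20.4 in 4sU-Seq. Sheared total RNA gave 29.0 and 34.1 CPM and unsheared total RNA 40.9 and 42.5. No 2 groups overlapped, and the order ran from purified and sheared to neither.

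The DSIF subunits followed the same order with smaller steps. SUPT5H, the large subunit that clamps onto the polymerase, had 60.9 and 66.4 CPM in TT-Seq, 70.5 and 78.4 in 4sU-Seq, 86.0 and 86.5 in sheared total RNA and 89.6 and 97.6 in unsheared total RNA. SUPT4H1, its small partner, had 29.7 and 30.1 CPM in TT-Seq, 42.7 and 41.1 in 4sU-Seq, 50.1 and 39.1 in sheared total RNA and 52.0 and 48.8 in unsheared total RNA. For SUPT4H1 the 2 sheared total RNA libraries were as far apart as neighbouring groups, and only TT-Seq lay clear of the rest.

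Among the NELF subunits, NELFE, which carries an RNA recognition motif, had the widest gap between new and total RNA. NELFE had 19 and 17.2 CPM in TT-Seq, 27.6 and 28.0 in 4sU-Seq, 54.2 and 44.0 in sheared total RNA and 62.2 and 62.1 in unsheared total RNA. NELFB, a core subunit, had 21.1 and 23.4, then 29.0 and 33.4, then 46.8 and 44.0, and 49.6 and 51.3 CPM in the same order of groups. Both genes had at most 33.4 CPM in any purified library and at least 44.0 in any total RNA library. NELFA, which binds the polymerase, had 57.7 and 68.6 CPM in TT-Seq, 90.3 and 94.0 in 4sU-Seq, 117 and 117 in sheared total RNA and 103 and 106 in unsheared total RNA. NELFA was the only one of the 9 whose highest group was sheared total RNA. NELFCD, another core subunit, had 38.2 and 36.4 CPM in TT-Seq, 37.7 and 33.9 in 4sU-Seq, 50 and 42.4 in sheared total RNA and 49.5 and 47.9 in unsheared total RNA. Its purified groups overlapped each other and so did its total groups, with a gap between the 2 kinds.

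**Figure D1:**
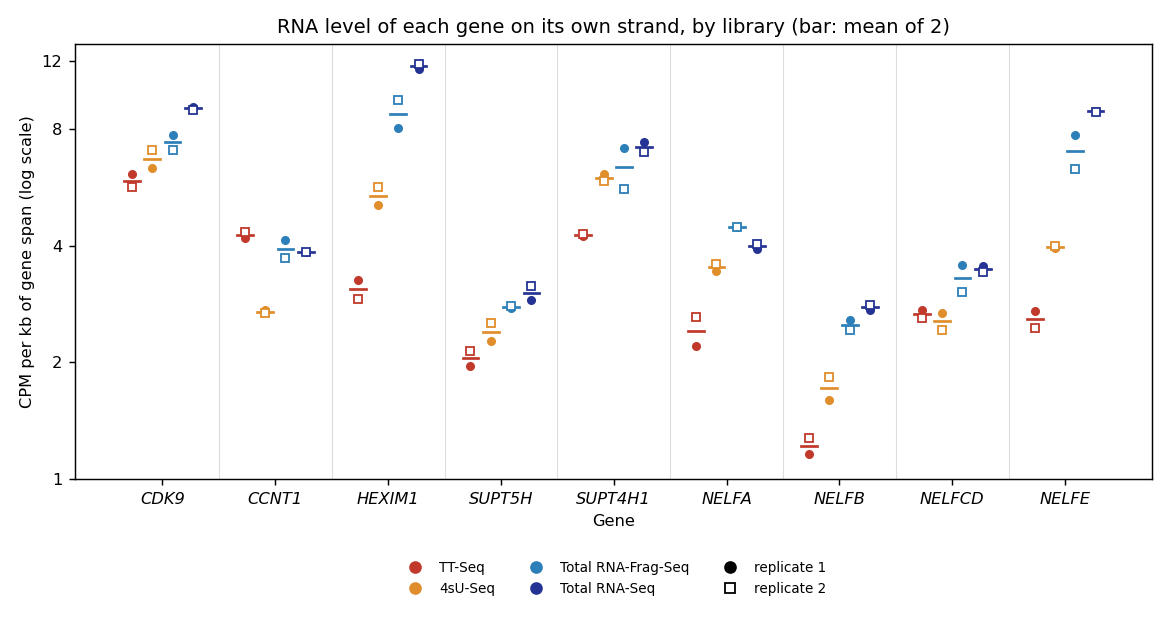
RNA level of each gene as CPM per kb of gene span (log axis) in each of the 8 libraries, with a bar at the mean of the 2 replicates of a group. HEXIM1 rises from 3.10 in TT-Seq to 11.6 in unsheared total RNA, while CCNT1 is lowest in 4sU-Seq at 2.70.

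Levels were compared between genes as CPM per kb of span. In TT-Seq CDK9 was highest with a mean of 5.88 CPM per kb, at percentile 93.7 of the 12060 coding genes tested. SUPT4H1 (4.27) and CCNT1 (4.26) came next and overlapped in their replicates, followed by HEXIM1 at 3.10. NELFCD (2.66), NELFE (2.58) and NELFA (2.41) each overlapped their neighbour, and SUPT5H (2.05) and NELFB (1.22) were lowest, NELFB at percentile 51.3. In unsheared total RNA the order changed: HEXIM1 led with 11.6 CPM per kb, before CDK9 (9.04), NELFE (8.88) and SUPT4H1 (7.20). NELFA (3.98), CCNT1 (3.86), NELFCD (3.48), SUPT5H (3.02) and NELFB (2.77) followed, and no neighbours in that order overlapped. HEXIM1 moved from percentile 81.4 in TT-Seq to 95.1 in unsheared total RNA, NELFE from 76.1 to 93.3, and CCNT1 from 89.0 to 82.2. Spans include introns, so these are not levels per kb of mature RNA.

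The first pair of comparisons set each gene's share of purified RNA against its share of total RNA within the same treatment. After shearing, 8 of the 9 genes had fewer counts in TT-Seq than in sheared total RNA and none had more (edgeR quasi-likelihood test, Benjamini-Hochberg adjusted p under 0.05). Over all 15957 genes tested, 32.8% were lower and 32.5% higher, 65.3% in all, with a median log2 fold change of -0.02. The median of the 9 was -0.58. Of 12060 coding genes alone, 4500 were lower and 3632 higher, with a median of -0.09. HEXIM1 fell by 1.5 ± 0.1 (SE) on the log2 scale, a 2.82-fold difference with adjusted p = 3.31e-09, and NELFE fell by 1.44 ± 0.1, 2.72-fold, with adjusted p = 2.72e-09. These 2 genes lay at percentiles 4.9 and 5.6 of all log2 fold changes. NELFB (-1.03 ± 0.09) and NELFA (-0.89 ± 0.08) fell by 2.04-fold and 1.86-fold. The DSIF genes fell less, SUPT4H1 by 0.58 ± 0.1 and SUPT5H by 0.44 ± 0.08, and so did CDK9 (-0.33 ± 0.09) and NELFCD (-0.31 ± 0.09). CCNT1 was at 0.12 ± 0.07 (adjusted p = 0.132).

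The NELFCD difference lost its call without TT-Seq replicate 2 (-0.27, adjusted p = 0.0531) or without sheared total RNA replicate 1 (-0.18, adjusted p = 0.147). For SUPT4H1 the direction depended on the span: over the transcriptional unit of the authors, which is 110.5 kb long and also holds RNF43, the value was 0.42. All 9 genes had TT-Seq and sheared total RNA values that did not overlap, as did 83.7% of all genes. The libraries are bulk RNA scaled to their own totals, so a lower value is a smaller share of the library, and less RNA per cell cannot be told apart from fewer cells making it.

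Without shearing, purification gave the same split: 8 of the 9 genes were lower in 4sU-Seq than in unsheared total RNA and none higher, where 27.7% of all genes were lower and 27.6% higher, 55.3% in all. The median was -0.45 for the 9 and 0.01 for all genes. Of 12060 coding genes alone, 4106 were lower and 2861 higher, with a median of -0.08. NELFE fell by 1.16 ± 0.1 on the log2 scale (2.24-fold, adjusted p = 9.33e-08) and HEXIM1 by 1.11 ± 0.1 (2.16-fold, adjusted p = 2.15e-07). NELFB (-0.69 ± 0.09), CCNT1 (-0.51 ± 0.07), NELFCD (-0.45 ± 0.09), CDK9 (-0.43 ± 0.09) and SUPT5H (-0.33 ± 0.08) were also lower. SUPT4H1 fell by 0.27 ± 0.1 (adjusted p = 0.0316), a call lost without any one of the 2 4sU-Seq and 2 unsheared total RNA libraries (-0.3 to -0.21, adjusted p = 0.0587 to 0.202) and turned to 0.73 over the 110.5 kb unit. NELFA was at -0.18 ± 0.08 (adjusted p = 0.0571), and it was called in 8 of 16 alternatives. All 9 genes had groups that did not overlap, against 76.2% of all genes.

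**Figure D2:**
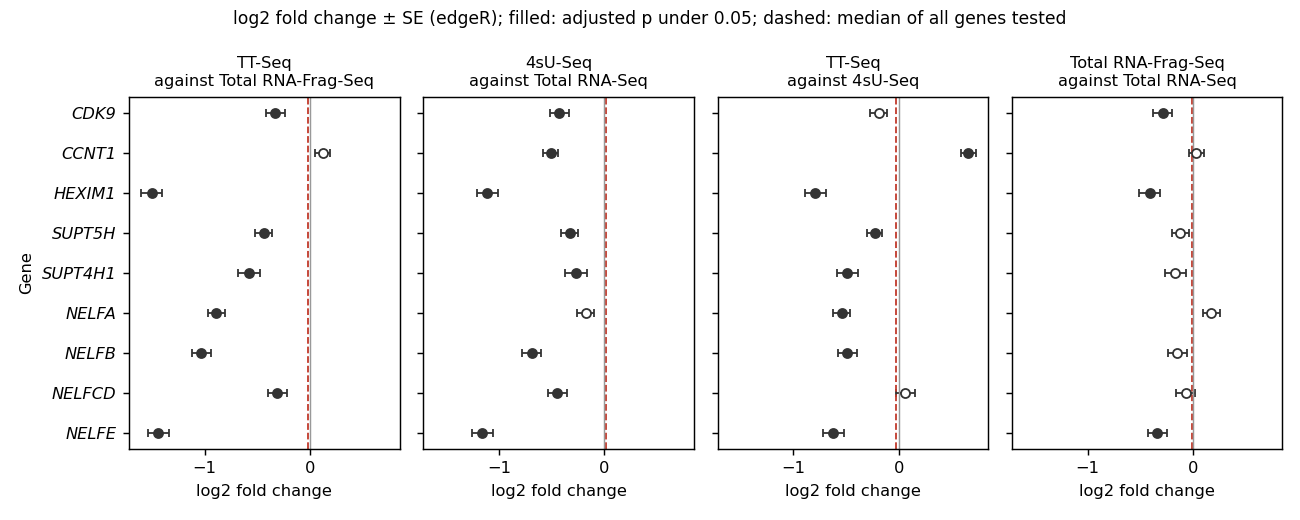
log2 fold change with its SE for each gene in the 4 pairwise comparisons of RNA groups; filled points passed adjusted p under 0.05 and the dashed line is the median of all genes tested. HEXIM1 and NELFE lie furthest left in both comparisons of purified with total RNA, and CCNT1 is the one point clearly to the right in TT-Seq against 4sU-Seq.

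The second pair asked what shearing did, before purification and without it. All these comparisons share libraries with those above, so their values for a gene are given beside each other and not as independent evidence. In TT-Seq against 4sU-Seq, CCNT1 was the only one of the 9 with more counts, by 0.66 ± 0.07 on the log2 scale (1.58-fold, adjusted p = 4.46e-07), at percentile 92.6. HEXIM1 (-0.79 ± 0.1), NELFE (-0.62 ± 0.1), NELFA (-0.54 ± 0.08), SUPT4H1 (-0.49 ± 0.1), NELFB (-0.49 ± 0.09) and SUPT5H (-0.23 ± 0.07) had fewer. Of all genes, 28% were higher and 28% lower, 56% in all. CDK9 (-0.19 ± 0.08, adjusted p = 0.0704) and NELFCD (0.06 ± 0.09, adjusted p = 0.597) did not pass. CDK9 did pass with library size alone (-0.36, adjusted p = 0.00527), over the authors' unit (-0.24, adjusted p = 0.0196) and without 4sU-Seq replicate 1 (-0.25, adjusted p = 0.0326). The SUPT5H call was lost without TT-Seq replicate 1 (-0.15, adjusted p = 0.235), without 4sU-Seq replicate 2 (-0.15, adjusted p = 0.141) and with the DESeq2 Wald test (-0.19, adjusted p = 0.0565).

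The share of higher calls over all genes depended on scaling. With library size alone in place of TMM, the median of all genes moved to -0.2 and the higher calls from 49.9% to 34% of all calls. CCNT1 then stood at 0.49, NELFCD at -0.11 and HEXIM1 at -0.96, each on the same side of the median as before. The groups did not overlap for 8 of the 9 genes, against 77.6% of all genes.

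Shearing of total RNA moved these genes little. HEXIM1 fell by 0.41 ± 0.1 (adjusted p = 0.00591), NELFE by 0.34 ± 0.09 (adjusted p = 0.0136) and CDK9 by 0.29 ± 0.09 (adjusted p = 0.022) in sheared total RNA against unsheared total RNA. These were 3 of 9 genes lower and none higher, where 10.4% of all genes were lower and 17.5% higher, 27.9% in all. The other 6 lay between -0.17 and 0.17. Each of the 3 calls failed when some single library was left out: HEXIM1 without sheared total RNA replicate 1 or unsheared total RNA replicate 2, and CDK9 and NELFE without sheared total RNA replicate 2 or either unsheared total RNA library (adjusted p = 0.0594 to 0.129 over these fits). Over all genes the calls dropped from 4451 to 2574 without sheared total RNA replicate 2 and to 2611 and 2619 without unsheared total RNA replicate 1 and 2. Higher calls made up 62.9% of all calls with TMM, 30.1% with library size alone, where the median of all genes was -0.15 and 6 of the 9 were lower, and 51.8% with only these 4 libraries. Values did not overlap for 6 of the 9 genes and 64.7% of all.

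The interaction asked whether purification changed a gene by a different amount in sheared and unsheared RNA. CCNT1 was higher by 0.63 ± 0.1 on the log2 scale (adjusted p = 9.41e-05): purification left it at 0.12 in sheared RNA and at -0.51 in unsheared RNA. NELFA was lower by 0.71 ± 0.11 (adjusted p = 9.85e-05), from -0.89 in sheared to -0.18 in unsheared RNA. Both calls held in all 15 alternatives. HEXIM1 (-0.39 ± 0.14, adjusted p = 0.0395) and NELFB (-0.34 ± 0.13, adjusted p = 0.0431) passed narrowly. HEXIM1 lost its call without either TT-Seq library, 4sU-Seq replicate 2, sheared total RNA replicate 2 or either unsheared total RNA library, and NELFB without any single library but 4sU-Seq replicate 1. Thus 1 of the 9 genes was higher and 3 were lower, against 17.8% of all genes higher, 22.3% lower and 40.2% in all. CDK9, SUPT5H, SUPT4H1, NELFCD and NELFE lay between -0.32 and 0.13 and did not pass.

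The position of the counts along each gene differed between new and total RNA. Each span was divided at its middle into a 5' and a 3' part of equal length, and the share of counts in the 5' part was taken. SUPT4H1 had 42.4% and 41.2% of its counts in the 5' part in TT-Seq, but 16.5% and 15.6% in 4sU-Seq. In total RNA the share was 9.6% and 10.4% after shearing and 9.47% and 9.35% without. NELFE ran from 37.0% and 35.5% in TT-Seq through 22.5% and 18.2% in 4sU-Seq to 9.44% and 9.66% in unsheared total RNA, and CCNT1 from 45.9% and 49.1% through 28.7% and 30.5% to 15.9% and 15.7%. In these 3 genes every TT-Seq share lay above every 4sU-Seq share, and every 4sU-Seq share above those of total RNA. The same order held in CDK9, NELFB and NELFCD, and the share of all genes with it was not counted.

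HEXIM1 ran the other way. Its 5' part held 44.3% and 50.7% of the counts in TT-Seq, 63.8% and 64.8% in 4sU-Seq, 72.7% and 78.9% in sheared total RNA and 78.5% and 80.3% in unsheared total RNA. The median over 6591 well covered coding genes was 50.9% in TT-Seq, 45.9% in 4sU-Seq, 40.3% in sheared total RNA and 38.0% in unsheared total RNA. By group means, the 9 genes lay in TT-Seq between 36.3% (NELFE) and 56.6% (SUPT5H), and in unsheared total RNA between 9.41% (SUPT4H1) and 79.4% (HEXIM1).

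**Figure D3:**
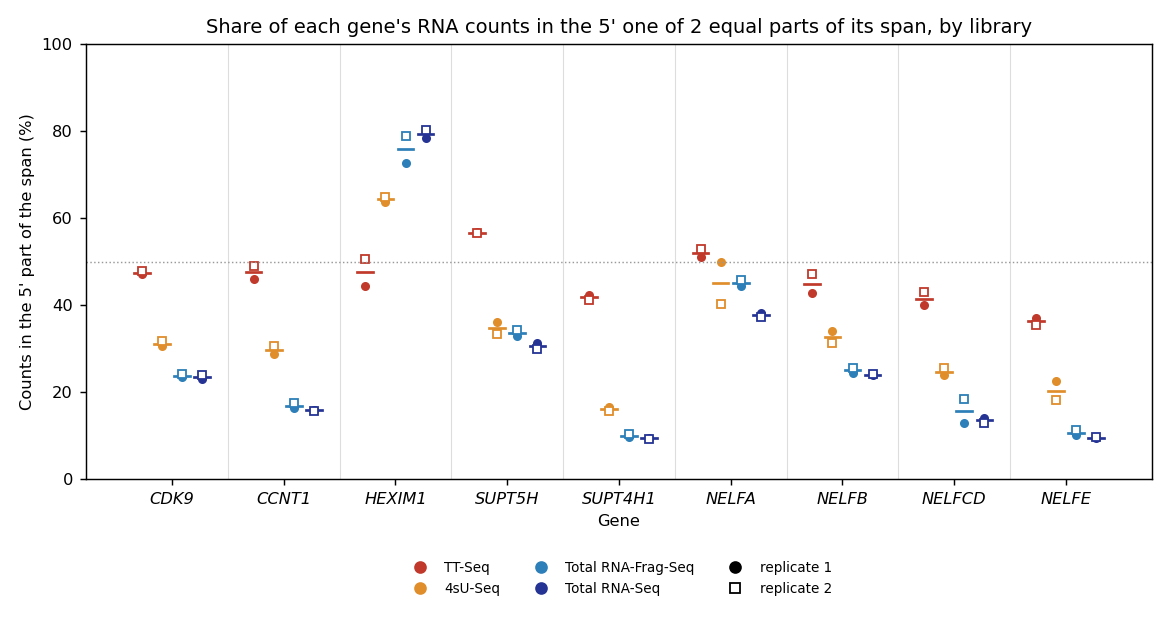
Share of each gene's counts that fell in the 5' one of 2 equal parts of its span, in percent, for every RNA library, with a bar at the group mean and a dotted line at 50%. TT-Seq lies near the line for most genes, total RNA lies under it for 8 genes, and HEXIM1 has 79.4% in unsheared total RNA.

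The ratio of 5' to 3' counts in TT-Seq was tested against that in 4sU-Seq within libraries. It was higher in TT-Seq for 8 of the 9 genes and lower for HEXIM1, against 32.7% of 14668 genes higher, 7.72% lower and 40.5% in all. The median was 1.11 for the 9 and 0.24 for all genes. Of 11493 coding genes alone, 4493 were higher and 923 lower, with a median of 0.28. SUPT4H1 was higher by 1.91 ± 0.12 on the log2 scale (3.75-fold, adjusted p = 7.62e-10), at percentile 98.3. RNF43 ends 298 bp before SUPT4H1 on the same strand, and any RNA running on from RNF43 was not counted apart. SUPT5H (1.29 ± 0.1), NELFE (1.16 ± 0.15), NELFCD (1.12 ± 0.15), CCNT1 (1.11 ± 0.09), CDK9 (1 ± 0.12) and NELFB (0.76 ± 0.13) followed. HEXIM1 was lower by a log2 value of -1 ± 0.17 (adjusted p = 0.000111), at percentile 4.

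NELFA had the smallest difference, 0.4 ± 0.14 (adjusted p = 0.0254), and lost its call without either TT-Seq library (adjusted p = 0.0556 and 0.15) or without 4sU-Seq replicate 2 (0.13, adjusted p = 0.446). Its 5' share in 4sU-Seq was 49.8% and 40.3%, below both TT-Seq values of 51.1% and 52.9%, with 1 library close to them. With TMM over all columns NELFA also lost its call (0.23, adjusted p = 0.203). NELFE lost its call when the outer parts, each one of 3 equal pieces, were compared (0.18, adjusted p = 0.529). Over all genes, TMM over all columns took the higher calls from 80.9% to 61.5% of all calls and the median to 0.07.

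Counts were also less gathered in TT-Seq. For each gene the 20% of bins with the most counts were taken in each library. In SUPT4H1 they held 43.8% and 43.5% of the counts in TT-Seq, 76.6% and 77.9% in 4sU-Seq and 87.3% and 86.8% in unsheared total RNA. NELFE gave 41.2% and 44.6% in TT-Seq, 68.3% and 72.6% in 4sU-Seq and 86.4% and 85.7% in unsheared total RNA. HEXIM1, which has no intron, changed least, with 43.0% and 40.0% in TT-Seq and 46.3% and 47.9% in unsheared total RNA. The medians of coding genes were 51.1% in TT-Seq and 66.4% in unsheared total RNA.

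HEXIM1 was divided further at 2.1 kb from the start, a division chosen after its profile had been seen. The first 11 bins had 2.61 and 2.42 binned CPM per kb (CPM of all binned counts of the library) in TT-Seq, 5.29 and 6.3 in 4sU-Seq, and 13.6 and 13.7 in unsheared total RNA. The last 7 bins had 1.63 and 1.34 in TT-Seq, 1.11 and 1.18 in 4sU-Seq, and 1.34 and 1.52 in unsheared total RNA. Sheared total RNA had 8.58 and 10.2 in the first bins and 1.13 and 0.879 in the last. Over all 4 groups the 3' stretch lay between 0.879 and 1.63 and the 5' stretch between 2.42 and 13.7. The level of the 3' stretch was 62.5% and 55.4% of that of the 5' stretch in TT-Seq, 21.0% and 18.7% in 4sU-Seq, 13.2% and 8.62% in sheared total RNA, and 9.85% and 11.1% in unsheared total RNA.

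**Figure D4:**
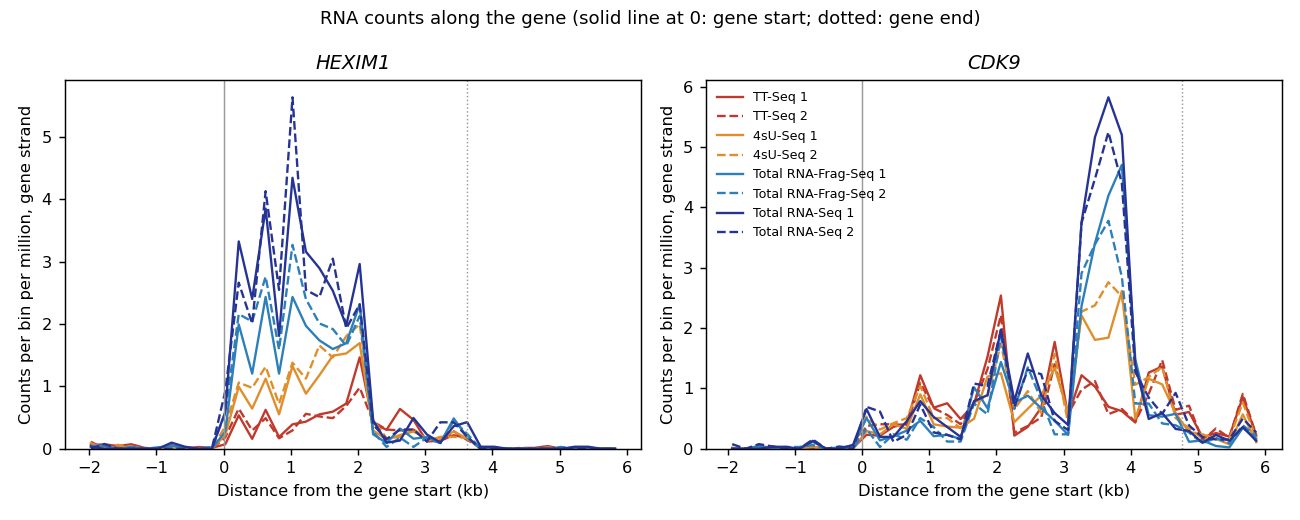
RNA counts per bin as binned CPM on the gene strand from 2 kb before to 6 kb after the start of HEXIM1 and CDK9, with 1 line per library (dashed for replicate 2) and a dotted line at the gene end. Total RNA drops past about 2.1 kb in HEXIM1, and in CDK9 its highest bins lie in the 3' part, where TT-Seq has no such rise.

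Transcription around the genes was read from 3 further windows, described here without a test. The opposite strand held 54.4% and 57.6% of all RNA counts in the HEXIM1 span in TT-Seq, 41.9% and 38.4% in 4sU-Seq, 26.1% and 24.2% in sheared total RNA and 18.7% and 20% in unsheared total RNA. HEXIM2-AS1 is annotated there. The share was 16.5% and 16.3% for SUPT4H1 and 9.76% and 10.9% for NELFCD in TT-Seq, and the means of the other 6 lay between 0.334% and 2.75%. The median coding gene had 0.866%.

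In the 4 kb after the gene end, the count density on the gene strand in TT-Seq was 1.12 and 0.9 of that within the gene for NELFA and 0.478 and 0.59 for NELFCD. It was 0.0391 and 0.0474 for HEXIM1. The median of coding genes was 0.33 in TT-Seq and 0.111 in unsheared total RNA. HEXIM1 therefore had the lowest and NELFA the highest ratio of the 9 in TT-Seq. On the opposite strand in the 1 kb before the start, SUPT4H1 had 5.32 and 6.73 CPM in TT-Seq, SUPT5H 2.96 and 3.08, and CCNT1 2.53 and 2.69. CDK9 had 0 and 0.0615 CPM there, and the median coding gene 0.678. The SUPT4H1 window lies within TSPOAP1-AS1, and those of NELFE (2.3 and 2.03) and NELFB (0.341 and 0.513) hold the starts of SKIC2 and CIMIP2A.

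All 9 genes had more N20 signal per kb at the start than in the body. The start window was 300 bp to each side of the RefSeq start, the body ran from 600 bp after it to the gene end, and the values are binned CPM per kb. SUPT4H1 had the largest ratio, with 18.8 and 19.8 at the start and 0.521 and 0.643 in the body, or 36.1-fold and 30.9-fold. NELFCD followed with 14.4-fold and 27.0-fold and CCNT1 with 15.2-fold and 11.5-fold. The lowest ratios were those of NELFA (5.96 and 6.98), CDK9 (4.95 and 8.91) and HEXIM1 (7.09 and 9.46). Over 11601 coding genes with enough ChIP counts the median ratio was 11, and 96.6% lay above 1. Of the 9 genes, 3 were above that median: SUPT4H1, CCNT1 and NELFCD. Within 6 kb of the start, body bins without a count in any ChIP library were 7 of 27 for SUPT4H1, 8 of 27 for NELFCD and 6 of 27 for CCNT1. They were also 7 of 27 for NELFA, against 0 of 21 for CDK9 and 0 of 27 for NELFB. Whether reads can be placed in those bins, and so how they bear on the ratios, was not tested.

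HEXIM1 and SUPT4H1 stood apart in S2P signal in the start window. HEXIM1 had 36.4 and 89.0 binned CPM per kb in its start window and SUPT4H1 had 50 and 61.9, at percentiles 99.2 and 99.1 of coding genes. The other 7 genes had 1.90 to 14.5. The SUPT4H1 window reaches the end of RNF43, 298 bp upstream on the same strand. Signal of either antibody there cannot be assigned to the SUPT4H1 start alone. The HEXIM1 replicates lay far apart, but in both libraries HEXIM1 and SUPT4H1 were above the other 7 genes. In the body HEXIM1 had 6.26 and 13.2 and SUPT4H1 only 0.539 and 0.562, which gave S2P ratios of start to body of 5.82 and 6.76 for HEXIM1 and 92.7 and 110 for SUPT4H1. NELFA had S2P ratios of 0.64 and 0.977, the only gene under 1 in both libraries, and NELFB 0.759 and 1.47. The median of coding genes was 5.91.

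**Figure D5:**
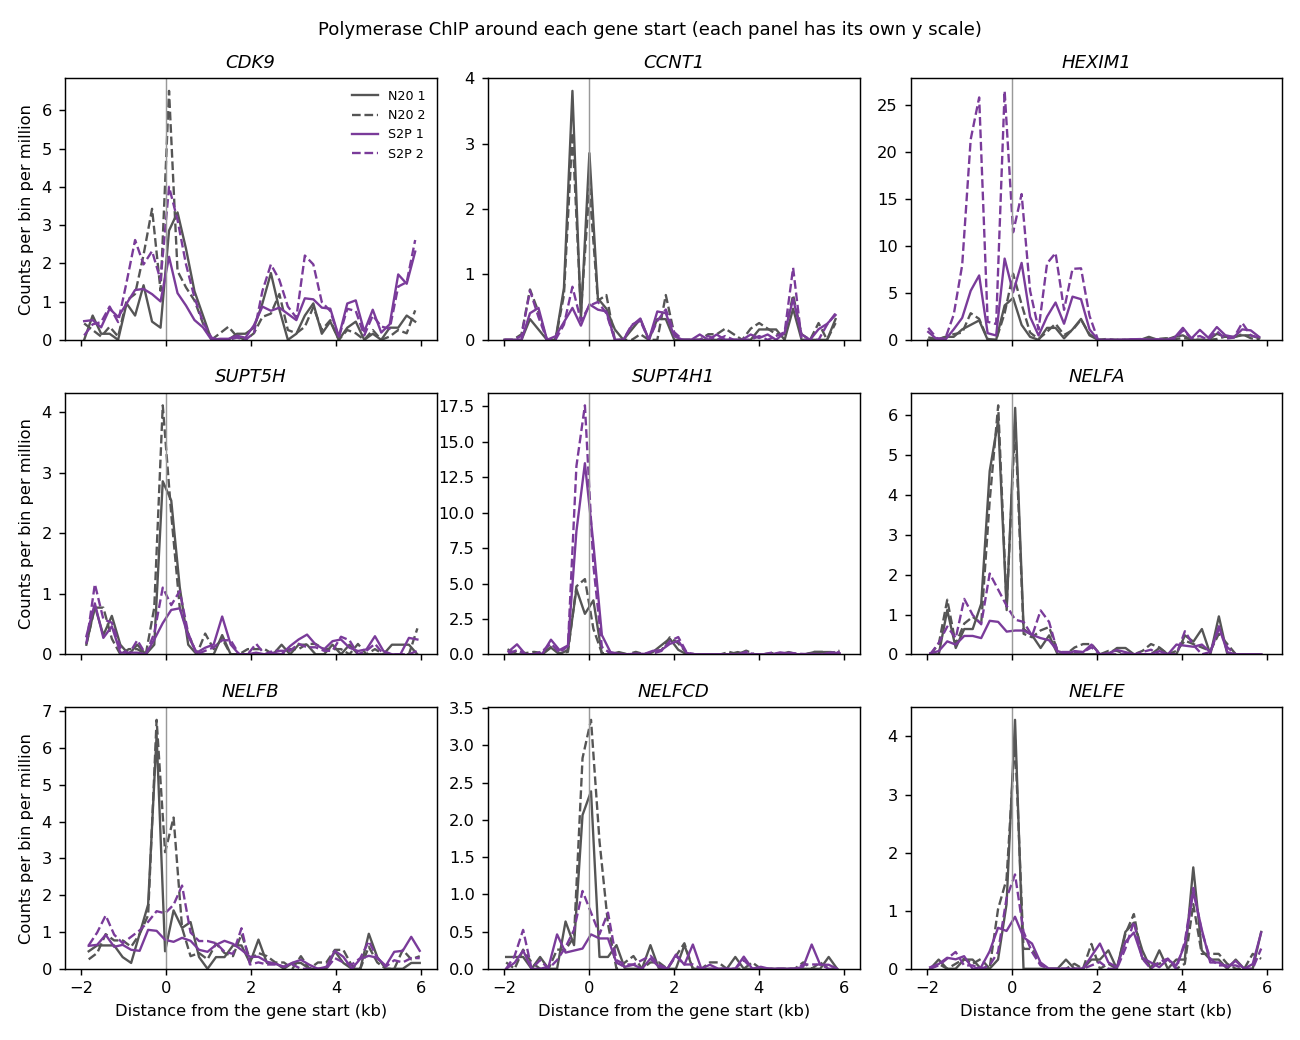
ChIP counts per bin as binned CPM from 2 kb before to 6 kb after each gene start for the N20 and S2P libraries (dashed for replicate 2), each panel with its own scale. N20 peaks near every start, the highest S2P bin exceeds the highest N20 bin in both replicates at HEXIM1 and SUPT4H1, and the highest N20 bin of CCNT1 is centred at -393.5 bp.

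The highest N20 bin lay within 300 bp of the start in both libraries for 7 genes. Among these, it was centred at -226.5 bp in both NELFB libraries, and CIMIP2A starts 205 bp from NELFB. In SUPT4H1 replicate 1 it was centred at -299.5 bp, and RNF43 ends 298 bp upstream. Such signal cannot be assigned to the start of NELFB or SUPT4H1 alone. For CCNT1 the highest N20 bin was centred at -393.5 bp from the start, outside the start window. It held 3.81 and 3.17 binned CPM against 2.86 and 2.31 in the bin at the start itself. In NELFA replicate 2 the highest N20 bin was centred at -326.5 bp (6.25 binned CPM), and in replicate 1 at 73.5 bp (6.19). The S2P signal of HEXIM1 was also high upstream, with 6.84 and 25.8 binned CPM in the bin at -774.5 bp. Between it and the maximum at -174.5 bp (8.63 and 26.5) lay 2 bins with no more than 1.91. N20 had 2.06 and 2.23 in the bin at -774.5 bp and no more than 0.0857 in the same 2 bins. The 4 bins from 2025.5 to 2625.5 bp held no more than 0.0857 binned CPM in any ChIP library. Whether reads can be placed in those 4 bins or in the 2 upstream bins was not tested.

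The next comparison set S2P against N20 over gene bodies, to ask where the polymerase carried serine 2 phosphate. After scaling, 6 of the 9 genes had more S2P than N20 in their bodies and none less, against 25.5% higher, 23.7% lower and 49.2% in all of 24334 genes (edgeR quasi-likelihood test, Benjamini-Hochberg). The median was 1.16 for the 9, -0.01 for all genes and 0.22 for coding genes. Of 14771 coding genes alone, 5244 were higher and 2538 lower. NELFCD was higher by 1.8 ± 0.18 (3.47-fold, adjusted p = 1.55e-05), from 0.533 and 0.486 binned CPM per kb with N20 to 1.60 and 1.37 with S2P. The strand of CTSZ, which ends beside NELFCD, held 9.76% and 10.9% of TT-Seq counts in the span. ChIP signal of NELFCD and CTSZ cannot be divided there. NELFB was higher by 1.57 ± 0.14 and NELFA by 1.51 ± 0.16. SUPT5H was higher by 1.16 ± 0.13, with 0.94 and 1.00 in N20 and 1.88 and 1.77 in S2P. In these 4 genes the antibodies did not overlap in any library. The same was true of CDK9 and HEXIM1, and the share of all genes without overlap was not counted.

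HEXIM1 had the largest body difference, 2.32 ± 0.48 (5.01-fold, adjusted p = 0.0176), at percentile 99.1. The HEXIM1 body is short and its S2P replicates differed, and the call was lost without N20 replicate 1 (2.31) or replicate 2 (2.35). ChIP signal there cannot be divided from that of HEXIM2-AS1, whose strand held 54.4% and 57.6% of TT-Seq counts in the span. CDK9 was higher by 0.96 ± 0.24 (adjusted p = 0.00756), a call lost without N20 replicate 2 (0.79, adjusted p = 0.107) and with library size alone (0.46, adjusted p = 0.09). CCNT1 (0.11 ± 0.18), SUPT4H1 (0.16 ± 0.26) and NELFE (0.23 ± 0.22) did not pass. With library size alone they stood at -0.36, -0.32 and -0.24, above the median of all genes, -0.49, as they were above it with TMM. With that scaling higher calls made up 25.1% of all calls, against 51.9% with TMM. Over all genes the calls dropped from 11978 to 7774 without N20 replicate 1 and to 7469 without replicate 2. Dividing all ChIP counts by 2, an alternative added after the even counts were seen, left the same number called, 6 higher and none lower.

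The last comparison asked whether the ratio of start to body differed between the antibodies. It was lower in S2P than in N20 for 4 of the 9 genes and higher for none, against 16% of 24480 genes lower, 1.24% higher and 17.2% in all. Of 14835 coding genes alone, 3446 were lower and 207 higher, with a median of -0.78 against -0.43 for all genes. NELFCD was lower by 11.1-fold, a log2 value of -3.47 ± 0.69 (adjusted p = 5.89e-05), with ratios of 14.4 and 27.0 in N20 and 1.19 and 2.76 in S2P. NELFA (-3.03 ± 0.69), NELFB (-2.96 ± 0.68) and SUPT5H (-2.7 ± 0.68) were also lower. All 4 calls rest on both N20 libraries: without replicate 1 the adjusted p values were 0.0541 to 0.162 and without replicate 2 they were 0.135 to 0.224, while the log2 values stayed between -3.9 and -2.51.

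SUPT4H1 had the opposite sign, 1.6 ± 0.67 (adjusted p = 0.0832), and passed with TMM over all columns (2.15, adjusted p = 0.002) and without S2P replicate 2 (1.48, adjusted p = 0.0423). Measured from the start of the authors' unit, 65348 bp upstream, it was -2.76 (adjusted p = 0.029). CCNT1 (-1.31 ± 0.68, passing at -1.57 and adjusted p = 0.0481 without S2P replicate 2), CDK9 (-1.04 ± 0.66), NELFE (-1.04 ± 0.68) and HEXIM1 (-0.39 ± 0.66) did not pass. With TMM over all columns the higher calls went from 7.2% to 31.5% of all calls, the median of all genes from -0.43 to 0.09, and HEXIM1 to 0.15. Leaving out S2P replicate 1 cut the genes called from 4219 to 2064, and leaving out N20 replicate 1 or 2 cut them to 151 and 39.

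Other genes of pausing and elongation were described from 7 lists of 60 genes, of which 48 could be tested. In TT-Seq against sheared total RNA, 21 were higher and 20 lower, with a median of 0.1, beside 32.5% and 32.8% of all genes. EAF2 and INTS4 were the highest (1.12 ± 0.09 and 0.87 ± 0.06), and INTS1 and INTS11, subunits of the Integrator complex that cleaves nascent RNA, were the lowest (-1.74 ± 0.08 and -1.55 ± 0.09).

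In 4sU-Seq against unsheared total RNA the 48 genes had 11 higher and 18 lower, beside 27.6% and 27.7% of all genes. Their median was -0.15, with the histone chaperone SSRP1 (-1.14 ± 0.08) lowest and TCEA2 (0.79 ± 0.16) highest. In TT-Seq against 4sU-Seq, 23 were higher and 13 lower, beside 28% and 28% of all genes, and the median was 0.17. TCEA2 (-1.73 ± 0.16) and POLR2E (-1.43 ± 0.11) were lowest, with POLR2B (0.79 ± 0.06) and CDK7 (0.78 ± 0.07) highest. Shearing of total RNA moved 11 up, led by MNAT1 (0.49 ± 0.06), and 6 down, led by MLLT3 (-0.74 ± 0.13). Beside this, 17.5% of all genes went up and 10.4% down. The interaction called 19 higher, MLLT3 most (1.11 ± 0.17), and 10 lower, TCEA2 most (-1.33 ± 0.24), beside 17.8% and 22.3% of all genes. The 5' to 3' ratio was higher in TT-Seq for 20, with POLR2A at 1.61 ± 0.09, and lower for 5, with MLLT3 at -0.94 ± 0.32. Over all genes 32.7% were higher and 7.72% lower, and the median was 0.17 for the 48 and 0.24 for all. In gene bodies S2P exceeded N20 at 27 of the 48, with POLR2L at 2.64 ± 0.15, and MLLT3 was the 1 gene lower (-1.28 ± 0.17). Among all genes 25.5% were higher and 23.7% lower. The median was 0.53 for the 48, -0.01 for all genes and 0.22 for coding genes. The ratio of start to body was lower in S2P for 16, with INTS11 at -3.68 ± 0.7, and higher only for INTS15 (1.92 ± 0.69). For all genes it was lower in 16% and higher in 1.24%. The median was -1.6 for the 48, -0.43 for all genes and -0.78 for coding genes.

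For each of the 9 genes, the coding gene with the closest centred log2 values over the 8 RNA libraries was found among 12060. These were ATG101 for CDK9, G3BP2 for CCNT1, CHST2 for HEXIM1, FAHD2B for SUPT5H, GINS2 for SUPT4H1, PTPRF for NELFA, LONP1 for NELFB, TBRG1 for NELFCD and TUBA1A for NELFE. Euclidean distances were 0.092 for CDK9 to 0.185 for HEXIM1, against median distances to all coding genes of 1.06 to 2.11. None of the 9 was the closest gene of another.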

How the data were processed

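The authors deposited raw fragment counts for 15441419 genome bins, each 200 bp long; RNA counts are split by strand and ChIP counts are not, per the file headers. The build was hg38 (GRCh38). The tools STAR 2.3.0, Bowtie2 2.1.0 and SAMtools are named, without their roles, per the submitters' processing notes. The handling of fragments that match several places is not stated in the labels or headers, so genes with near-identical copies are uncertain. The authors also deposited 21874 transcriptional units, used as an alternative; their exon, intron and rate tables were not used here.

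A bin was assigned to a gene where its centre lay in the RefSeq span (GRCh38.p14), with strand from the promoter table, which gave one for 27304 of 38382 coding and long non-coding genes. Counts were tested with edgeR 4.0.16 in R 4.3.3 (filterByExpr, TMM with factors 0.932 to 1.077, glmQLFit robust, glmQLFTest, Benjamini-Hochberg adjustment over all genes tested at 0.05). The 8 RNA libraries shared 1 estimate of spread (coefficient of variation 5.86%) and the 4 ChIP libraries another (15.5% over bodies). Comparisons of 2 windows of a gene kept the library as a block and used shared library totals. Spans needed 10 bins to be divided and bodies 5. Counts in genes were 18744913 to 52249734 per RNA library. Alternatives were other scalings, DESeq2 1.42.0, filters, windows, units, the replicate block and leaving out each library. The scripts were tested on simulated data with known changes. For the test of start against body, 11% of the genes changed 2-fold were recovered, with 14241 genes simulated in all. Those that did not pass there may therefore still differ. Over gene bodies 48.4% of the genes changed 2-fold were recovered, with 24334 simulated in all.

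The genes and lists were chosen with earlier results of these data known. Named genes are the 9, at most the 2 highest and 2 lowest called genes of the other lists in each comparison, and the closest coding gene to each of the 9; EPCAM and CD3D were named after their values were seen.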

Additional observations from a re-analysis of the deposited data

Results flagged for a closer look

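In 4 of the 9 genes the effect of purification differed between sheared and unsheared RNA by the test of the interaction itself (edgeR quasi-likelihood test, Benjamini-Hochberg). The differences on the log2 scale were 0.63 for CCNT1, -0.71 for NELFA, -0.39 for HEXIM1 and -0.34 for NELFB. Over all genes tested 40.2% were called. The CCNT1 and NELFA differences passed in all alternatives run, while those of HEXIM1 and NELFB did not.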

How the results depend on the processing

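Replicate numbers were not taken as pairs: deviations of same-numbered RNA libraries correlated at -0.034 to 0.191, those of the ChIP libraries at -0.075. With the replicate number as a block, 10574 genes were called in TT-Seq against sheared total RNA, 9073 in 4sU-Seq against unsheared total RNA, 9159 in TT-Seq against 4sU-Seq, 4872 in sheared total RNA against unsheared total RNA, 6726 in the interaction and 12216 over bodies, and NELFA in 4sU-Seq against unsheared total RNA and SUPT4H1 in the interaction also passed. The fit on only the libraries compared could not be made for the interaction, which uses all groups. Counted over the authors' units, TT-Seq against sheared total RNA called 15640 of 19318 units (10426 of 15957 over genes). With units, 1 of the 9 genes was higher there and 1 in 4sU-Seq against unsheared total RNA. Also with units, 5 were lower in sheared total RNA against unsheared total RNA. In the interaction 5 were lower, and 25.4% of all its calls were higher (44.4% over genes). Over the units SUPT4H1 was 0.42 in TT-Seq against sheared total RNA and 0.73 in 4sU-Seq against unsheared total RNA. NELFCD was -0.09 in TT-Seq against 4sU-Seq. With library size alone 6 of the 9 were lower in sheared total RNA against unsheared total RNA, CCNT1 was -0.11 there, NELFCD was -0.11 in TT-Seq against 4sU-Seq, and over bodies CCNT1, SUPT4H1 and NELFE were -0.36, -0.32 and -0.24, each on the same side of the median of all genes as with TMM. The interaction had 1 of the 9 lower with DESeq2 size factors and 1 with the DESeq2 Wald test. CCNT1 was -0.01 in sheared total RNA against unsheared total RNA with only those libraries. For start against body, TMM over all columns gave 1 higher and HEXIM1 0.15, and the unit start gave SUPT4H1 -2.76. The cause of these changes was not tested.

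Leaving out single libraries gave 2574 to 5360 genes in sheared total RNA against unsheared total RNA, with 0 to 3 of the 9 lower, 1 to 3 lower in the interaction, 0 to 1 higher in TT-Seq against sheared total RNA, 7469 to 13584 genes over bodies, and 39 to 6041 genes for start against body, with 0 to 5 of the 9 lower and 0 to 1 higher. Signs turned for NELFCD in TT-Seq against 4sU-Seq without 4sU-Seq replicate 2 (range -0.01 to 0.15), CCNT1 in sheared total RNA against unsheared total RNA without sheared total RNA replicate 1 (range -0.05 to 0.08), NELFCD there without replicate 2 (range -0.2 to 0.02) and CCNT1 over bodies without S2P replicate 1 (range -0.03 to 0.21). A group left with 1 library is assumed to vary like the others. N20 is the shallower antibody, and leaving out either of its libraries lowered the number of genes called in both ChIP comparisons.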
